A study of Mus musculus with 14 samples.

Results

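The mitochondrial ribosomal protein genes encode the protein part of the ribosome that works inside mitochondria. They were chosen for description with earlier results of these data known. Membership followed name and annotation, as the protein_coding rows whose symbol starts with Mrpl or Mrps followed by a digit. This gave 78 genes of the 55487 in the count table, 49 with Mrpl names and 29 with Mrps names. By structure 51 belong to the large subunit and 26 to the small subunit, and Mrps36 to neither. They lie on 17 chromosomes, with 11 of them on chromosome 11. RNA was measured in 14 libraries from colon cells sorted by flow cytometry. Lamina propria macrophages (CD45+, CD64+, MHCII+) came from 3 wt mice, Tsc2fl/fl Lyz2+/+, and 3 cre mice, Tsc2fl/fl Lyz2cre/+. Epithelial cells (EpCAM+, CD44 high, CD45-) came from mice of the same genotypes, with 4 wt and 4 cre libraries. Tsc2, an inhibitor of the growth-promoting kinase complex mTORC1, is thus floxed in every group, and the groups differ in the Cre gene. Cre sits in the Lyz2 locus, whose expression is mainly in macrophages, monocytes and granulocytes. No group carries the recombinase without the floxed allele. Age and strain were not given in the sources used here. The macrophage comparison addresses loss of Tsc2 in the cells in which Lyz2 is active, and the epithelial comparison addresses their neighbours in the same colon.

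Mitochondria keep a small genome that encodes a few subunits of the respiratory chain together with the RNAs of their own ribosome. All proteins of that ribosome are encoded in the nucleus, made in the cytosol and imported. Many descend from bacterial ribosomal proteins, while others were added later in mitochondria and have no bacterial counterpart. In most tissues their genes are transcribed from TATA-less housekeeping promoters, in which sites of the respiratory factors NRF1 and GABP (an ETS factor) and of YY1 are well known.

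Promoter windows from RefSeq (GRCm38.p6) matched 69 of the 78 genes, and the letters of 6 motifs were searched on both strands in the 250 bases before each start. The NRF1 letters (GCGCA and GCGC with any 1 base between them) were in 10 of 69 windows (14.5%) against 4.23% of the windows of all 27025 genes. The ETS letters CCGGAAGT were likewise in 10 (14.5%, against 3.23%), and the YY1 letters (AAGATGG followed directly by CGGC) in 1 (1.45%, against 0.248%). At least 1 of these 3 motifs was in 21 windows (30.4%, against 7.35%). The SP1 letters GGGGCGGGG were in 13 windows (18.8%, against 11.8%), the CCAAT letters CCAATCA in 9 (13.0%, against 8.38%) and the TATA letters TATAAAA in 4 (5.80%, against 5.85%). A match is a run of letters and not a measured binding site. Below are 3 stretches of 100 bases that end just before the RefSeq start. Their genes were picked, among those with the largest differences below, for having NRF1 or ETS letters there. Mrpl48 also had ETS letters (first base at -35) and is not shown. Mrpl28, Mrpl58 and Mrps18a, also among the largest differences, had none of the 6 motifs, and Mrps31 had only CCAAT letters. In capitals are the NRF1 letters of Mrpl12 (chr11:120484537-120484636, plus strand, first base at -81) and the ETS letters of Mrps22 (chr9:98601680-98601779, minus strand, first base at -11) and Mrps26 (chr2:130563657-130563756, plus strand, first base at -15). In Mrpl12 and Mrps26 the motif reads on the opposite strand.
Mrpl12: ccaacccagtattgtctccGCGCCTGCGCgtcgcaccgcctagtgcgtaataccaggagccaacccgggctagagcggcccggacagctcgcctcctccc
Mrps22: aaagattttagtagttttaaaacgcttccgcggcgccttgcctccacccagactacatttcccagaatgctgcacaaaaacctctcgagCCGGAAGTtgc
Mrps26: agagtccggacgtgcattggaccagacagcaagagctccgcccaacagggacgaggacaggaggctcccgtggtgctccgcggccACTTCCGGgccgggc

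The libraries held 7269103 to 9364551 counts. All 12 macrophage markers and all 14 epithelial markers were higher in the labelled cell type. Tsc2 was at 25.6 to 42.5 CPM (counts relative to the library total after TMM scaling) in wt and 26.6 to 36.0 CPM in cre macrophages (log2 difference -0.14, SE 0.23, adjusted p = 0.860, edgeR). Counts over the whole gene include exons outside a floxed segment, so this value does not check the deletion. Lyz2 itself was at 6857 to 8711 CPM in macrophages, 25.1 to 42.6 CPM in wt and 9.99 to 16.4 CPM in cre epithelial cells. The epithelial groups did not overlap (log2 change, cre minus wt, -1.40, SE 0.21, adjusted p = 0.00648, edgeR). Nuclear ribosomal RNA took 18.5 to 31.8% of the counts in wt epithelial cells, 26.7% in cre epithelial 8 and 7.38 to 10.6% in the other 3 cre epithelial libraries. All 3 cre macrophage libraries were from male mice, against 1 of 3 wt libraries, and 3 of 4 cre epithelial libraries, against 2 of 4 wt libraries. The titles carry 4 wt mouse numbers, whereas the series text counts 3 wt mice, so a pair of wt epithelial libraries could share an animal.

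Of the 78 genes, 77 had counts in every library. Mrpl53 had 0 counts in all 14 libraries, and 88.0% of its exon bases are shared with the gene model Gm42688 on the same strand, so reads from there cannot be assigned to 1 gene. In all, 33 of the 78 genes share exon bases with another gene. Per length, in the deposited FPKM (counts divided by gene length and library size), the median member was at 9.34 in wt macrophages, 10.4 in cre macrophages, 18.6 in wt epithelial cells and 22.7 in cre epithelial cells. This put the median member at percentiles 84.1, 85.3, 91.5 and 91.9 of all protein_coding genes in those groups. The order of the members by FPKM was much the same in all 4 groups, with Spearman's rho between group means of 0.925 to 0.990 over the 78 genes, which share libraries and gene lengths in these comparisons. The highest mean FPKM over the groups was that of Mrpl28, followed by Mrpl52, Mrpl12 and Mrpl54. Mrpl52, a protein with no bacterial counterpart, led in macrophages, at 82.1 ± 13.0 FPKM in wt (SD, n = 3) and 91.0 ± 20.4 in cre (n = 3). In epithelial cells Mrpl28 led, at 164 ± 13.0 FPKM in wt (SD, n = 4) and 275 ± 38.9 in cre (n = 4), but in wt cells it lay within the spread of Mrpl52 (156 ± 18.1) and Mrpl12 (149 ± 6.91). Mrpl54 reached 83.2 ± 9.22 FPKM in wt and 120 ± 9.89 in cre epithelial cells (SD, n = 4 each). At the low end above 0, Mrpl1 had 0.747 to 1.16 FPKM as its range of group means, Mrps28 had 1.69 to 2.33 and Mrpl9 had 1.49 to 2.55. Most proteins of a ribosome are present in a single copy. The members spanned 0.747 to 91.0 FPKM in cre macrophages and 1.04 to 275 FPKM in cre epithelial cells. The length behind the FPKM did not follow transcript length in every gene. In wt epithelial 2, Mrpl17 had 51.1 CPM and 5.01 FPKM, with a median transcript of 869 bases. Mrpl12 had 277 CPM and 157 FPKM there, with 1042 bases. The part of that length in the span and order by FPKM was not tested.

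**Figure D1:**
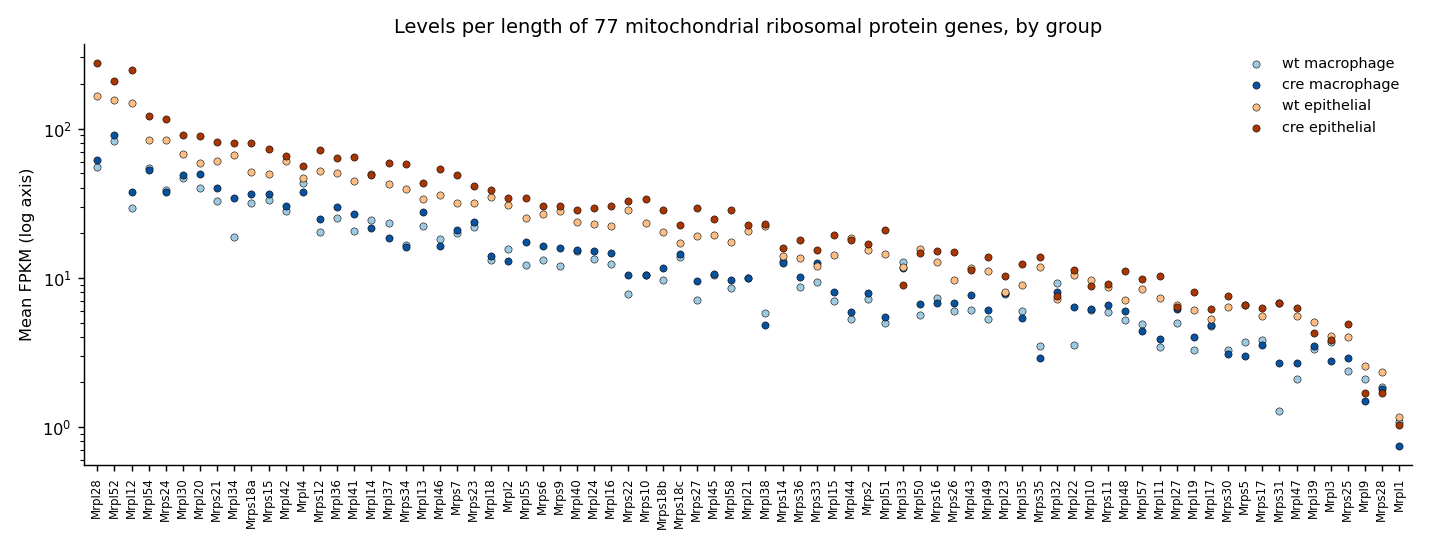
Mean deposited FPKM (log axis) of the 77 mitochondrial ribosomal protein genes with counts, ranked by their mean over groups, in the 4 groups of libraries. Epithelial points lie above macrophage points for most genes, and the order of the genes changes little, from Mrpl28 at the top to Mrpl1 at the bottom.

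A smaller part of the mRNA of macrophages than of epithelial cells was for the mitochondrial ribosome. Of 77 members tested, 70 were lower in macrophages and none was higher at an adjusted p under 0.05 (edgeR, 6 against 8 libraries), where 34.3% of all 16375 genes tested were lower and 39.4% were higher. The median log2 difference, macrophage minus epithelial, was -1.09 over the members and 0.07 over all genes. At least a 2-fold difference was called in 49 members, against 22.5% of all genes. In 57 members every macrophage library lay under every epithelial library, which held for 22.1% of all genes. In bulk samples such as these, fewer cells of a type and less RNA per cell cannot be told apart. With the trend over GC content and length removed, 73 members were lower, the median of the members was -1.29, and the median of all genes moved from 0.07 to -0.27 (5254 higher and 7226 lower, against 6451 and 5614). Markers of other cell types were also higher in macrophages, with B and plasma cell markers at 563 to 2677 CPM summed (5.0 to 20.5 CPM in epithelial cells) and stromal markers at 946.5 to 5238 CPM (2.6 to 9.1 CPM). Their part in the difference was not tested.

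Summed over all members, wt macrophages were at 2088, 1691 and 1626 CPM (wt macrophage 2, 4 and 6) and cre macrophages at 2134, 1761 and 1885 CPM (cre macrophage 8, 9 and 10). Wt epithelial cells were at 3951, 3995, 3533 and 3768 CPM (wt epithelial 2, 4, 6 and 7) and cre epithelial cells at 5512, 4438, 5152 and 4929 CPM (cre epithelial 5, 8, 9 and 10). The 2 macrophage groups overlapped, while every epithelial library was above every macrophage library and every cre epithelial library above every wt one. The mean of the epithelial libraries was 2.37 times that of the macrophage libraries. As a share of the counts left after nuclear ribosomal RNA and mitochondrially encoded rows, the members took 0.205 to 0.257% in wt macrophages, 0.223 to 0.248% in cre macrophages, 0.587 to 0.666% in wt and 0.712 to 0.825% in cre epithelial cells, with the same order of the groups.

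**Figure D2:**
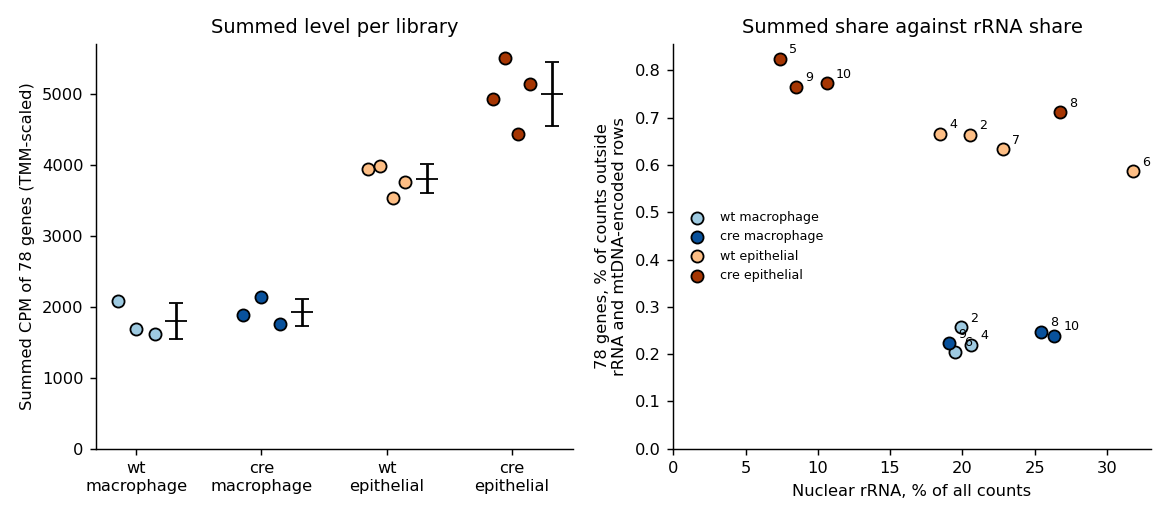
Left, summed CPM of the 78 genes in each of the 14 libraries, with group means and SD. Right, the share of counts outside ribosomal RNA and mitochondrially encoded rows that the genes took, in percent, against the nuclear ribosomal RNA share of the same library, with points numbered by mouse. The cre epithelial libraries are the highest in both panels, and cre epithelial 8, whose ribosomal RNA share of 26.7% is in the wt range, is the lowest of the 4.

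Mrpl12 showed the largest difference between the cell types. It forms the flexible stalk that recruits translation factors and also binds the mitochondrial RNA polymerase (Polrmt). Its level (chr11:120484613-120489065) was 49.2, 46.6 and 43.5 CPM in wt macrophages and 76.0, 46.0 and 57.9 CPM in cre macrophages, in the order of mice given above. In epithelial cells it was 277, 251, 252 and 265 CPM in wt and 493, 350, 452 and 404 CPM in cre. The cell types were far apart, and the log2 difference was -2.64 (SE 0.12, adjusted p = 5.01e-12), which is 6.24-fold. Mrpl38, a large subunit protein with no bacterial counterpart, was at 12.1, 10.1 and 7.44 CPM in wt and 5.55, 12.03 and 7.08 CPM in cre macrophages. Its epithelial values were 34.0, 41.1, 44.4 and 48.2 CPM in wt and 47.4, 35.8, 43.4 and 41.99 CPM in cre. The genotypes overlapped in both cell types and the cell types did not (log2 -2.19, SE 0.17, adjusted p = 4.96e-09).

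Mrps35, Mrps31 and Mrps22, small subunit proteins added in mitochondria, were also among the 6 largest differences. Mrps35 had 21.9, 10.1 and 20.6 CPM in wt and 17.5, 13.8 and 12.6 CPM in cre macrophages. In epithelial cells Mrps35 had 61.4, 66.7, 58.3 and 77.1 CPM in wt and 74.3, 80.2, 74.8 and 72.0 CPM in cre, so that the lowest epithelial library was above the highest macrophage one (log2 -2.12, SE 0.15, adjusted p = 1.96e-09). Mrps22, mutated in human mitochondrial disease and shown above with its ETS letters, had 13.3, 8.51 and 11.8 CPM in wt and 14.5, 14.7 and 15.7 CPM in cre macrophages. Its epithelial values of 53.9, 52.8, 31.3 and 42.3 CPM in wt and 59.0, 45.7, 48.7 and 50.7 CPM in cre were all higher (log2 -1.87, SE 0.15, adjusted p = 4.45e-09). Mrps31 was low in macrophages, at 1.06, 4.04 and 1.86 CPM in wt and 4.87, 5.51 and 4.25 CPM in cre, and reached 8.55 to 17.2 CPM over the 8 epithelial libraries (log2 -1.998, SE 0.25, adjusted p = 1.56e-06). The last of the 6 genes named here is Mrpl28 (log2 -1.97, SE 0.14), whose values are given below.

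The difference ran through the parts of the ribosome. Of the large subunit proteins 44 of 50 were lower in macrophages (median log2 -1.14) and of the small subunit proteins 25 of 26 (median -1.08). Proteins with a bacterial counterpart gave 39 of 46 (median -1.06). Members without one, with Mrps36 counted among them, gave 31 of 31 (median -1.23). At the stalk base, Mrpl11 (log2 -1.37, SE 0.11) and Mrpl10 (-0.70, SE 0.16) were both lower, by unequal amounts. Mrps12, which lines the decoding centre, was lower by 2.91-fold (log2 -1.54, SE 0.15). Mrpl44, which carries a ribonuclease III fold, was steady over genotypes and apart between cell types, at 7.39 to 11.9 CPM over the 6 macrophage libraries and 32.1 to 36.1 CPM over the 8 epithelial ones (log2 -1.82, SE 0.12). Mrpl45, at the exit of the peptide tunnel by the inner membrane, had log2 -1.16 (SE 0.12), and Mrpl58 (ICT1), a peptidyl-tRNA hydrolase that frees stalled ribosomes, had -1.40 (SE 0.13). Of the 3 homologues of bacterial S18, Mrps18b had -1.28 (SE 0.16), Mrps18a -1.02 (SE 0.16) and Mrps18c -0.60 (SE 0.18). Mrps30, which despite its name sits in the large subunit, had -1.24 (SE 0.13), and Mrps36, now known as a subunit of the 2-oxoglutarate dehydrogenase complex, had -0.83 (SE 0.19). Each of these 11 genes passed the test. Reads of Mrps36 may be shared with the pseudogene rows Mrps36-ps1 and Mrps36-ps2, given below.

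The 7 members that did not pass were Mrpl1, Mrpl9, Mrpl23, Mrpl27, Mrpl32, Mrpl33 and Mrps28. Their log2 differences ran from -0.41 for Mrpl1 to 0.13 for Mrpl33. Mrpl32, whose processing by a mitochondrial protease is a step of ribosome assembly, was at 27.4 to 36.5 CPM over the macrophage and 24.3 to 35.0 CPM over the epithelial libraries, a difference of 0.10 with a 95% interval of -0.12 to 0.32. The median of the members, -1.09, lay outside that interval. Mrps28, at 0.710 to 2.66 CPM over all 14 libraries, had a wider interval of -0.89 to 0.43. The pattern was alike in each genotype, with 65 of 77 lower in macrophages among wt libraries (29.3% of all genes; member median -1.01) and 68 of 77 among cre libraries (29.5%; median -1.23).

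**Figure D3:**
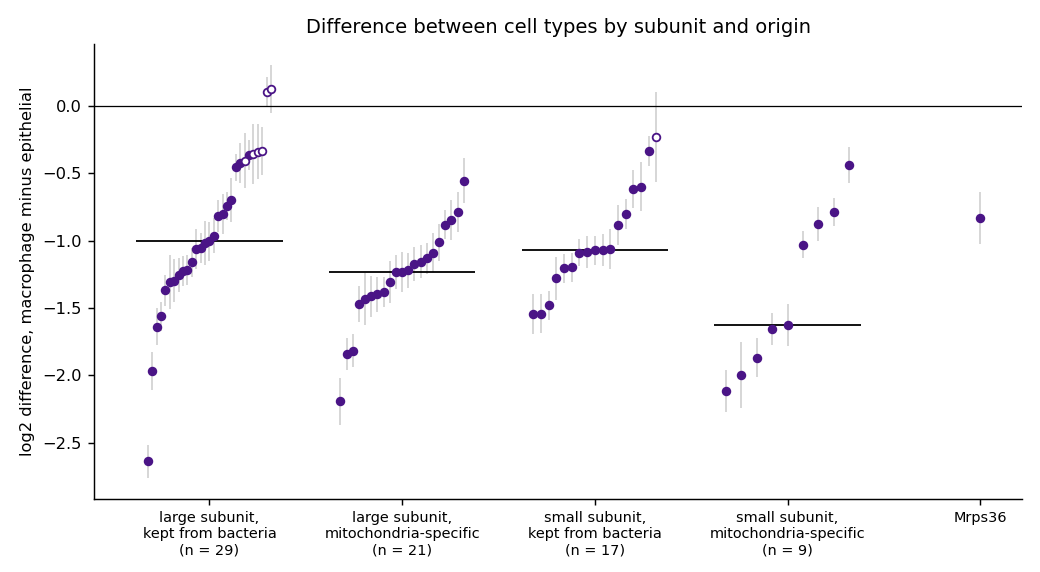
Log2 difference, macrophage minus epithelial, with its SE for the members by subunit and origin (29, 21, 17 and 9 genes in the 4 classes, and Mrps36 apart). Lines are class medians and filled points passed an adjusted p under 0.05. Nearly all points lie below 0 in every class, with Mrpl12 at -2.64.

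Other genes of the pathway were described from lists chosen by function. The 5 mitochondrial ribosomal proteins with other names (Dap3, Ptcd3, Aurkaip1, Chchd1 and Gadd45gip1) were all lower in macrophages (median log2 -1.31), Ptcd3 by -1.60 (SE 0.19). Of 26 ribosome assembly factors 18 were lower and 3 higher (median -0.79), with Mrm2, a methyltransferase of the large ribosomal RNA, at -2.11 (SE 0.22). Of 14 translation factors 10 were lower, led by Tufm, the elongation factor that delivers tRNAs, at -2.41 (SE 0.12). The mitochondrial tRNA synthetases had 16 of 20 lower (median -1.06) and the genes of mitochondrial DNA expression 10 of 12 (median -1.04; Tfam, which packages the DNA, -1.65, SE 0.14). Nuclear-encoded respiratory chain subunits had 76 of 77 lower, with a median of -1.47. Of the RNAs of the mitochondrial genome, 6 of 9 for proteins (median -0.43) and 2 of 2 ribosomal RNAs (median -0.69) were lower in macrophages over both genotypes. Here the genotypes were unlike: among wt libraries 9 of 9 (median -0.85) and 2 of 2 (median -1.50) were lower, and among cre libraries 1 of 9 (median 0.08) and 0 of 2 (median 0.11). The cytosolic ribosome, which translates all other proteins, had 44 of 81 lower and 7 higher, with a median of -0.26. Regulators of mitochondrial biogenesis did not go one way: of 9, 3 were lower, among them the coactivators Ppargc1a (-4.79, SE 0.48) and Ppargc1b (-2.93, SE 0.38), and 5 were higher, among them Gabpa (1.47, SE 0.24).

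In epithelial cells, which lie outside the lineages in which Lyz2 is mainly active, 22 of 77 members rose in cre mice and none fell (edgeR, adjusted p under 0.05, 4 against 4 libraries). Over all 13553 genes tested, 5.64% rose and 3.53% fell. The rises were small, and none reached 2-fold (0.125% of all genes did). The median log2 change, cre minus wt, was 0.27 over the members and -0.05 over all genes, and 62 members were above 0, against 44.8% of all genes. In 29 members all 4 cre libraries were above all 4 wt libraries (10.8% of all genes), and in none were they all below (6.15%). With limma on log2(FPKM + 1), which shifts the median of all genes from -0.05 to 0.06 and the calls from 765 higher and 478 lower to 1142 and 246, 27 members rose, the 22 among them.

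Mrpl28, a large subunit protein with a bacterial counterpart, rose most. Its level (chr17:26123500-26126613) was 248, 249, 204 and 233 CPM in wt epithelial 2, 4, 6 and 7 and 450, 325, 406 and 356 CPM in cre epithelial 5, 8, 9 and 10. Every cre library was above every wt library, with cre epithelial 8 the lowest of the 4 (log2 change 0.70, SE 0.11, adjusted p = 0.00648). In macrophages the same gene had 102, 59.3 and 54.6 CPM in wt and 87.6, 70.1 and 81.8 CPM in cre, which overlapped. Mrpl12, with its epithelial values of 251 to 277 CPM in wt and 350 to 493 CPM in cre given above, did not overlap either (log2 0.68, SE 0.11, adjusted p = 0.00648). Of the summed difference between the cre and wt epithelial means, 1196 CPM, these 2 genes made up 26.3%. Without them the sums were still apart, at 3077 to 3494 CPM in wt and 3763 to 4569 CPM in cre.

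Mrpl58 had 59.6, 65.7, 53.7 and 61.6 CPM in wt and 114, 86.9, 94.98 and 91.4 CPM in cre epithelial cells, with no overlap (log2 0.67, SE 0.11, adjusted p = 0.00701). Mrps18a had 73.5, 75.4, 64.2 and 70.5 CPM in wt and 128, 85.7, 113 and 109 CPM in cre. It, too, was higher in all 4 cre libraries (log2 0.60, SE 0.12, adjusted p = 0.0109). Its relatives Mrps18b (0.45, SE 0.16, adjusted p = 0.0804) and Mrps18c (0.36, SE 0.18, adjusted p = 0.209) did not pass and their groups overlapped. Mrps26, a small subunit protein added in mitochondria, had 60.1, 54.4, 49.6 and 54.5 CPM in wt and 89.2, 73.4, 92.0 and 81.0 CPM in cre (log2 0.60, SE 0.11, adjusted p = 0.00861). Mrpl48 had 40.8, 49.7, 48.6 and 38.3 CPM in wt and 78.1, 56.2, 68.9 and 68.0 CPM in cre (log2 0.59, SE 0.13, adjusted p = 0.0153). Neither gene's groups overlapped. Reads of Mrpl48 may be shared with the processed pseudogene row Mrpl48-ps, which held 99.6 counts per library on average.

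The other 16 genes that rose were Mrps7, Mrps10, Mrps12, Mrps15, Mrps24, Mrps27, Mrps34, Mrpl11, Mrpl15, Mrpl20, Mrpl30, Mrpl37, Mrpl41, Mrpl46, Mrpl51 and Mrpl54, by 0.39 to 0.59 on the log2 scale. In 20 of the 22 the libraries did not overlap, and Mrps15 and Mrpl41 were the exceptions. Mrps34 shares 63.4% of its exon bases with Mapk8ip3 on the opposite strand and 37.0% with Nme3 on the same strand, and without strand their reads cannot be told apart. By structure, 14 of 50 large subunit and 8 of 26 small subunit proteins rose (medians 0.25 and 0.27). By origin, 12 of 46 with a bacterial counterpart rose, and 10 of the 31 without one (medians 0.23 and 0.30). Mrps36 is counted among these 31. Mrps12 at the decoding centre rose by 0.43 (SE 0.12, adjusted p = 0.0324), with 71.7, 67.3, 59.1 and 58.7 CPM in wt and 93.7, 73.6, 94.6 and 89.7 CPM in cre. Stalk base protein Mrpl11 rose by 0.45 (SE 0.12, adjusted p = 0.0382), while its partner Mrpl10 was at -0.18 (SE 0.15). Mrpl44 was at 34.5 to 36.1 CPM in wt and 32.1 to 34.5 CPM in cre, a change of -0.09 with a 95% interval of -0.31 to 0.13. Mrpl45 (0.31, SE 0.10, adjusted p = 0.0698), Mrps30 (0.23, SE 0.14) and Mrps36 (0.36, SE 0.21) did not pass.

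**Figure D4:**
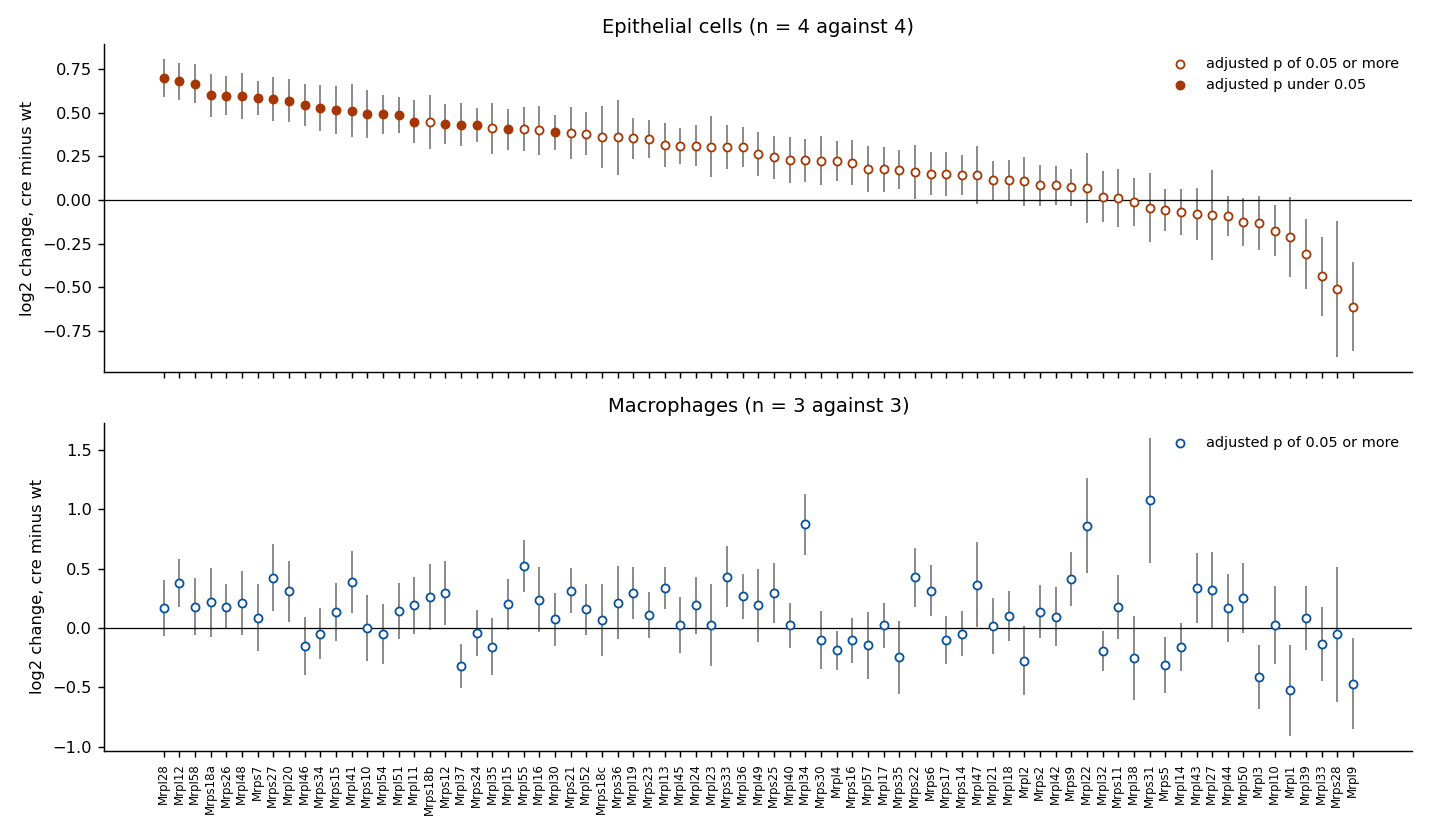
Log2 change, cre minus wt, with its SE for the 77 members tested, in epithelial cells (top, 4 against 4 libraries) and macrophages (bottom, 3 against 3). Filled points passed an adjusted p under 0.05. In epithelial cells 22 points are filled, all above 0, and in macrophages none is, with wider error bars.

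Over the 77 members, Spearman's rho between the log2 change and mean FPKM was 0.55, between the change and GC content 0.26, and between the change and length -0.19, as a description over genes that share the same 8 libraries. Protein_coding genes outside the list with a length and GC content in the members' central span (4844 tested) rose in 8.71% and fell in 2.06%, with a median of 0.04, so their share of rises was above the 5.64% of all genes and under the members' 28.6%. Of the promoter groups, 6 of the 21 tested members with NRF1, ETS or YY1 letters rose (median 0.18), and 13 of the 47 with none of them (median 0.30). Between the cell types, 18 of the 21 with these letters were lower in macrophages (median -0.85) and 44 of the 47 without (median -1.17).

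Several values moved with the genotype of the epithelial libraries. The nuclear ribosomal RNA share was lower in cre epithelial 5, 9 and 10, as given above, and cre epithelial 8 was the lowest cre library in 50 of the 77 members tested, 19 of them among the 22 that rose. With the ribosomal RNA share as a covariate 0 of 77 members passed (18 at an unadjusted p under 0.05, median 0.15, 59 above 0). The 9 macrophage markers tested were all below 0 in cre epithelial cells (median log2 -0.72, 1 passed), at 43.8 to 98.1 CPM summed over the whole list of 12 in wt and 29.6 to 64.4 CPM in cre. Lyz2 was lower in cre epithelial cells as well, as given above. The 14 epithelial markers summed to 16295.5 to 21244.5 CPM in wt and 21340.7 to 24497.7 CPM in cre epithelial cells, without overlap. Taken singly they were split, with 4 called higher and 1 lower, and 6 above and 8 below 0 (median log2 -0.05). The part of these genes in the result was not tested. The count of 22 fell to 5 without cre epithelial 9, 6 without cre epithelial 5, 12 without cre epithelial 10 and 14 to 16 without any 1 wt library, and rose to 32 without cre epithelial 8. Among male mice alone (2 wt against 3 cre) 0 members passed, 36 had an unadjusted p under 0.05 and the median was 0.37. In the comparison of all 8 libraries 36 members were under that unadjusted p, against 27.3% of all genes.

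The mitochondrial genome's own RNAs went the other way. Of its 9 protein-coding genes tested, 7 fell in cre epithelial cells (median log2 -0.78), led by the respiratory complex I subunits mt-Nd6 (-0.93, SE 0.13) and mt-Nd5 (-0.90, SE 0.14). Counts of the ribosomal RNAs around which the mitochondrial ribosome is built fell as well. The change was -1.32 for mt-Rnr1 (SE 0.25, adjusted p = 0.0163, edgeR) and -0.78 for mt-Rnr2 (SE 0.17, adjusted p = 0.0132). Their summed levels overlapped, at 80849 to 135643 CPM in wt and 62214.6 to 89808.5 CPM in cre epithelial cells. The highest cre value was that of cre epithelial 8, the cre library with the highest nuclear ribosomal RNA share. How far these 2 RNAs follow that share was not tested. Calls over all genes in this comparison, 1243, became 3 with the ribosomal RNA share as a covariate and 5 among males only. Nuclear respiratory chain subunits had 24 of 77 higher and 1 lower (median 0.24). Among the other ribosomal proteins Aurkaip1 (0.35, SE 0.10, adjusted p = 0.0402) and Gadd45gip1 (0.49, SE 0.14, adjusted p = 0.0469) rose, 2 of 5. The assembly factors gave 1 of 26 higher (Rcc1l, 0.48, SE 0.12) and the tRNA synthetases 1 of 20 (Fars2, 0.40, SE 0.12). Of 14 translation factors Tufm rose (0.45, SE 0.09) and Mtrf1, a release factor, fell (-0.93, SE 0.27), and no gene of mitochondrial DNA expression passed (0 of 12). Of 9 regulators, only Gabpb1 passed, and it fell (-0.62, SE 0.18, adjusted p = 0.0458). Cytosolic ribosomal proteins split, with 7 of 80 higher and 6 lower (median -0.01).

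In macrophages, in which the Lyz2 locus is active, none of the 77 members passed the test in either direction (edgeR, 3 against 3 libraries), with 0.731% of 14087 genes higher and 0.213% lower. At an unadjusted p under 0.05 were 2 members, against 12.8% of all genes, and DESeq2 called 0. The median log2 change was 0.14 over the members and 0.00 over all genes, and 53 of 77 were above 0 (50.5% of all genes). The member median moved to 0.05 without wt macrophage 6 or without cre macrophage 8 (48 and 43 above 0), to 0.23 without cre macrophage 9, to 0.01 with the ribosomal RNA share as a covariate (42 above 0), to 0.24 with sex as a covariate and to 0.25 among males only. In 10 members all cre libraries were above all wt libraries (9.96% of all genes) and in 2 below (9.73%). The median SE of a member's log2 change was 0.25, against 0.13 in epithelial cells.

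The smallest p was that of Mrpl34, a small basic large subunit protein with a bacterial counterpart. It had 19.5, 10.7 and 11.3 CPM in wt and 25.4, 24.8 and 25.2 CPM in cre macrophages. The cre libraries were close together and above all wt libraries (log2 0.87, SE 0.26, adjusted p = 0.192). Mrpl55 had 16.8, 14.9 and 13.7 CPM in wt and 22.7, 18.05 and 24.1 CPM in cre (log2 0.52, SE 0.22, adjusted p = 0.362). Mrpl22, which lines the peptide tunnel, had 3.88, 3.46 and 1.86 CPM in wt and 6.22, 5.14 and 5.35 CPM in cre (log2 0.86, SE 0.40, adjusted p = 0.407). For Mrps31, with the values given above, the change was 1.08 (SE 0.53, adjusted p = 0.441). The groups of these 4 genes did not overlap, a pattern that 9.96% of all genes shared. The genes that rose most in epithelial cells were at 0.17 (Mrpl28, SE 0.24), 0.38 (Mrpl12, SE 0.21), 0.18 (Mrpl58, SE 0.24), 0.22 (Mrps18a, SE 0.29), 0.18 (Mrps26, SE 0.19) and 0.21 (Mrpl48, SE 0.27) here, none past the test. Of the lists of related genes, only the tRNA synthetases had a call, 1 of 19, which was Lars2 (0.86, SE 0.16, adjusted p = 0.0483). Summed, that list was at 1678 to 1917 CPM in wt and 2638 to 3283 CPM in cre macrophages. In epithelial cells it was at 2082 to 3768 CPM in wt, 3071 CPM in cre 8 and 1254 to 1477 CPM in cre 5, 9 and 10. The nuclear ribosomal RNA share was 19.5 to 20.6% in wt macrophages and 25.5, 19.1 and 26.4% in cre macrophage 8, 9 and 10. Its part in the Lars2 call was not tested. Macrophage markers had 10 of 12 above 0 (median 0.42), and dendritic and stromal markers were lower in cre libraries (medians -1.26 and -1.33, 595.9 to 724.5 against 916.8 to 1883 CPM and 946.5 to 2869 against 3257 to 5238 CPM summed). Their part in these values was not tested.

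Whether the genotype effect differed between the cell types was tested on all 14 libraries. No member passed (0 of 77, against 0.702% of 16375 genes in either direction), 10 had an unadjusted p under 0.05 (15.3% of all genes), and the median difference, macrophage effect minus epithelial effect, was -0.22 over the members and 0.04 over all genes. That member median moved to -0.05 without wt macrophage 2 and to -0.12 with sex as a covariate. DESeq2 called 1 member, Mrpl37. Mrpl37, a large subunit protein added in mitochondria, had 50.4, 39.2 and 36.8 CPM in wt and 35.6, 35.1 and 29.7 CPM in cre macrophages. In epithelial cells it had 85.5, 86.0, 65.7 and 102 CPM in wt and 126, 106, 117 and 115 CPM in cre. The libraries were thus lower in cre macrophages and higher in cre epithelial cells, without overlap in either, and the difference of effects was -0.78 (SE 0.22, adjusted p = 0.117). Mrpl46, which shares 12.2% of its exon bases with Mrps11 on the opposite strand (-0.72, SE 0.26, adjusted p = 0.206), Mrps34 (-0.61, SE 0.23, adjusted p = 0.227) and Mrps24 (-0.50, SE 0.20, adjusted p = 0.256) followed. The rises in epithelial cells are therefore not shown to differ from the changes in macrophages. Of the related genes mt-Rnr1 passed this test, with a difference of 1.73 (SE 0.38, adjusted p = 0.0467).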

How the data were processed

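RNA of sorted colon cells was turned into cDNA with Smart-seq2, which keeps no strand, and read as 50 bp single reads, per the labels' protocols. Per the submitters' processing notes, the tools were Picard 2.19.2, STAR 2.5.2b and DESeq2 1.24.0, with genome build GRCm38. How reads were assigned to genes, with which annotation release and strand setting, is not given in the sources used here. The authors deposited raw counts per gene and a table of FPKM. In it each count is divided by a value per gene and a factor per library, so FPKM was used for levels per length. That value per gene did not follow the median transcript length in every member.

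Groups, mouse numbers and sex were taken from the labels. Nothing in the labels says how the libraries of a group were spread over cultures or days, so p-values measure the spread between these libraries. Tests on counts used edgeR 4.0.16 (R 4.3.3; TMM scaling, filterByExpr with a minimum count of 10, robust quasi-likelihood F test). Genotype effects were fitted within each cell type, and the cell type contrast and the difference of genotype effects were fitted on all 14 libraries. Adjusted p-values are Benjamini-Hochberg over all genes tested, with a threshold of 0.05, and intervals are 95% from the SE. CPM are TMM-scaled. The scripts were tested on simulated data. Alternatives were DESeq2 1.42.0, RLE size factors, other filters, limma 3.58.1 on log2(FPKM + 1) and log2(FPKM + 0.1), covariates for sex and ribosomal RNA share, removal of a trend over GC content and length (splines of 5 degrees of freedom), a replicate block and leaving out each library.

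The members and lists were chosen with earlier results of these data known. Values are given for the 6 members with the largest called rises and falls in a comparison (where fewer than 4 passed, the 4 with the smallest p), the 4 highest and 4 lowest by mean FPKM, and 12 members with known roles. Of each list, up to 3 genes with the smallest p are named where any passed. Other names serve to account for all members of a count. The lists of other cell types covered T and innate lymphoid cells, granulocytes and mast cells as well, with sums of 4.4 to 39.1 CPM in macrophages and 1.1 to 16.0 CPM in epithelial cells.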

Additional observations from a re-analysis of the deposited data

Results flagged for a closer look

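Of 68 checks for a library far from the other 3 of its epithelial group, 3 stood out, and chance flags about 1 in 20 such groups. Mrpl52 was at 84.1 CPM in wt epithelial 7, against 106 to 110 CPM in the other wt epithelial libraries. Mrps28 was at 1.94 CPM in the same library, against 2.56 to 2.63 CPM. The summed members took 0.314% of all counts in wt epithelial 6, against 0.412 to 0.423% in the other 3, and that library also had the highest nuclear ribosomal RNA share, 31.8%.

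Rows of processed pseudogenes with mitochondrial ribosomal names, which are not members, held counts above the limit of 3 that a count of 0 allows. Their means per library were 413 for Mrpl23-ps1 (range 264 to 725), 119 for Mrps36-ps1, 99.6 for Mrpl48-ps, 29.2 for Mrps36-ps2 and 12.4 for Mrpl27-ps. The parent gene Mrpl23 was one of the 7 members not called between the cell types, and whether reads were split between the rows was not tested. Mrps36 itself held 38 to 218 counts per library, and its values carry the same limit.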

How the results depend on the processing

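The lower level of the members in macrophages held under all 27 alternatives run, with 67 to 73 members called lower and none higher. The 22 rises in epithelial cells became 0 with the ribosomal RNA share as a covariate (also together with removal of the GC content and length trend, an alternative chosen after seeing the data), among males only, with all 14 libraries in one fit and with limma on log2(FPKM + 1) without a filter, and ran from 5 to 32 when 1 library was left out. Removal of the GC content and length trend left 18, of which 13 were among the 22. In macrophages 1 member, Mrpl34, passed with all 14 libraries in one fit and 0 otherwise. In the difference of effects 1 member, Mrpl37, passed with DESeq2 and with limma on log2(FPKM + 1). The median change of the members ran from 0.14 to 0.37 over the alternatives in epithelial cells, from 0.01 to 0.25 in macrophages and from -0.29 to -0.05 in the difference of effects. The cause of these changes was not tested. On the scale of all counts, the summed level in epithelial cells was 1.51 times as high in cre as in wt (1.31 in TMM CPM). Outside ribosomal RNA and mitochondrially encoded rows it was 1.21 times as high. In macrophages the ratio of cre to wt turned to 0.963 on the scale of all counts (from 1.07). The epithelial to macrophage ratio was 2.95 on the scale of all counts and 3.03 outside ribosomal RNA and mitochondrially encoded rows. Summed over FPKM it was 2.21 and over TPM 2.71. Calls over all genes moved more than 1.5 times in many alternatives. In epithelial cells 1243 became 1884 with DESeq2, 789 without the GC trend, 19 with all 14 libraries in one fit, 5 among males, 3 with the ribosomal RNA covariate and 178 to 1947 with 1 library left out. In macrophages 133 became 497 with DESeq2, 299 without a filter, 374 in the joint fit, 47 with limma without a filter, 32 among males, 18 with the ribosomal RNA covariate, 2 with sex as a covariate and 29 to 87 with 1 library left out. In the difference of effects 115 became 511 with DESeq2, 297 with limma, 195 and 183 without a filter (edgeR and limma) and 54 to 229 with 1 library left out. Mice of the 2 genotypes share no number, so a paired fit was possible only across cell types. Same-numbered macrophage and epithelial libraries deviated together with correlations of -0.033 to 0.085. Differently numbered ones of the same genotype had -0.084 to 0.047. Such correlations cannot decide whether libraries with the same number come from the same mouse. The main fits did not pair them. With the replicate block over the 12 libraries of mice with both cell types, 70 members were lower in macrophages (70 without the block) and 0 passed in the difference of effects, in which 7 of all genes were called (10 without the block). Depth limits the weakest members, such as Mrps28 at 0.710 to 2.66 CPM.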
